A study of Mus musculus with 12 samples.

Results

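Proteasome genes were examined in the chromatin of microglia, the resident macrophages of the brain, from *Cx3cr1*-WT and *Cx3cr1*-KO mice. A peak was taken as a member when the authors' annotation gave it a gene name that begins with Psm, then a letter from a to g, then a digit. This covers the subunits of the proteasome, its activators, its inhibitor and its assembly chaperones, and by its letters alone *Psmc3ip*, which is a recombination factor and not a subunit. By this rule, 77 of 26706 peaks of Rpb2 (in 42 genes) and 101 of 55862 peaks of acetylated histone H3 lysine 27, H3K27ac (in 45 genes), were members. A peak of at least 1 of the marks carried the name of 48 genes, of 17539 gene names in the tables, and 39 genes had a peak of both. The GENCODE annotation holds 50 protein-coding genes that match the rule, and the remaining members, *Psmb11* and *Psme2b*, had no peak of either mark.

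The proteasome breaks down proteins that carry a chain of ubiquitin. Its 20S core is a barrel of rings, with α subunits (*Psma* genes) on the outside and β subunits (*Psmb* genes) on the inside, where *Psmb5*, *Psmb6* and *Psmb7* encode the subunits that cut peptide bonds. The 19S cap recognizes ubiquitin and unfolds the substrate, with a base of ATPases (*Psmc* genes) and other subunits (*Psmd* genes). In immune cells, and under interferon, the cutting subunits are replaced by those of *Psmb8*, *Psmb9* and *Psmb10*, which form the immunoproteasome and shape the peptides that MHC class I presents; microglia are able to express them.

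The antibodies were against Rpb2, part of RNA polymerase II, whose reads gather where the polymerase sits, and H3K27ac, a mark of active promoters and enhancers. The mice were 2-mo-old C57BL/6J littermates, either *Cx3cr1* +/+ (WT) or *Cx3cr1* eGFP/eGFP (KO), in which eGFP disrupts both copies of the gene throughout the animal. Microglia were sorted as live CD11b+ CD45lo cells, and every library was made from the pooled cells of 3 mice of 1 sex, fixed with 1% paraformaldehyde, so that each genotype had, for each mark, 1 library with a female and 1 with a male label. All comparisons are thus n = 2 pools against 2, and because a pool is a bulk sample, fewer cells that carry a mark and less of it per cell cannot be told apart.

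The Rpb2 libraries held 11662185 to 44332626 reads, the deepest being the KO female, and 11.2 to 15.1% of their reads were in peaks. The H3K27ac libraries held 10395804 to 21134403 reads. Peaks took up 61.1 to 65.3% of the reads in 3 of them but 15.9% in the library labelled WT female. The Rpb2 library labelled WT female held 136 reads at the peaks of Y-linked genes, against 214 and 266 in the male libraries and 0 in the KO female, which goes against its sex label, so results are also given without either of these WT female libraries. The *Cx3cr1* promoter lies outside the part of the gene that was replaced and checks nothing; its Rpb2 peak held 369 and 462 reads (WT) against 1442 and 623 (KO). Of 9 microglial marker genes, 9 had an Rpb2 promoter peak, whereas none of the markers of neurons (4 genes), T and B cells (3), neutrophils (3), or monocytes and border macrophages (4) had one. In H3K27ac, *Ccr2* and the border macrophage marker *Mrc1* had a promoter peak. *Mrc1* held 54 and 130 reads in WT but 118 and 50 in KO, lower in both KO pools after scaling (log2 fold change −1.48, SE 0.51, edgeR adjusted p = 0.779), and its part in the results below was not tested. *Slc1a3* (1 of 4 astrocyte markers), *Mbp* (1 of 4 oligodendrocyte markers) and *Pecam1* (1 of 3 endothelial markers) had promoter peaks of both marks. *Mog*, a further oligodendrocyte marker, had a promoter peak in H3K27ac only. Among the 9 microglial markers, 7 had an H3K27ac promoter peak, whereas *Csf1r* and *Tmem119* lacked one.

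The promoters of the immunoproteasome genes are shown with those of constitutive counterparts *Psmb5* and *Psmb6*, and with those of *Psme1* and *Psme2*, the subunits of the interferon-inducible PA28 activator, because these genes carry the contrasts described below. The sequences are those of RefSeq on GRCm38.p6 and run 5′ to 3′ on the strand of the gene, from 250 bases before the start to 50 bases after it. Capitals mark matches, on either strand, to the motifs listed after them.
Psmb8 (chr17:34197945-34198244, + strand): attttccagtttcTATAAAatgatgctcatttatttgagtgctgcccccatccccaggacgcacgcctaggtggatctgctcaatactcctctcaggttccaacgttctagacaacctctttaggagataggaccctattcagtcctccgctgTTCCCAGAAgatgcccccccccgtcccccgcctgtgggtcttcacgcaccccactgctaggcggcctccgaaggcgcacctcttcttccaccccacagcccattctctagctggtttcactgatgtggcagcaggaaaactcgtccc
Psmb9 (chr17:34187281-34187580, - strand): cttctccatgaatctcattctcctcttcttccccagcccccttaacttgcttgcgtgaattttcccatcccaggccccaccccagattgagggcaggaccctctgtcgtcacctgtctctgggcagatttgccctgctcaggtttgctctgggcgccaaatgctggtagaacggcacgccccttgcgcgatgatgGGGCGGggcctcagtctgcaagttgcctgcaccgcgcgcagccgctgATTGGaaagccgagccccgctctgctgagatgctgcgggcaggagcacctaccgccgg
Psmb10 (chr8:105938343-105938642, - strand): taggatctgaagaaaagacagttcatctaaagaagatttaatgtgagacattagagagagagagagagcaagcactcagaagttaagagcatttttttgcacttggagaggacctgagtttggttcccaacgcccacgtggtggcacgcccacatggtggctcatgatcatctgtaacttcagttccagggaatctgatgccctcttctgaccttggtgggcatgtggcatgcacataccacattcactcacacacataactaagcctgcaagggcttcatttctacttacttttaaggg
Psmb5 (chr14:54617946-54618245, - strand): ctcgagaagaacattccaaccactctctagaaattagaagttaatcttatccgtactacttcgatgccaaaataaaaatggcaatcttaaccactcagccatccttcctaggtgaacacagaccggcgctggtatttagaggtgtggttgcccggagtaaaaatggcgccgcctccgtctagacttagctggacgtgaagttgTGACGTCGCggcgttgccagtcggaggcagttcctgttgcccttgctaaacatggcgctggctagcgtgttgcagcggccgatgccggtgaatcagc
Psmb6 (chr11:70525107-70525406, + strand): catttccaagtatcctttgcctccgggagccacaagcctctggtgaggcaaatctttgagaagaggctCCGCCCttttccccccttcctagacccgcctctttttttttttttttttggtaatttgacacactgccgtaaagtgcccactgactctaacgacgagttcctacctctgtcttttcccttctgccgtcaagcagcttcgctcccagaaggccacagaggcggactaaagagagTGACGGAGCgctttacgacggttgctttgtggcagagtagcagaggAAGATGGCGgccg
Psme1 (chr14:55578244-55578543, + strand): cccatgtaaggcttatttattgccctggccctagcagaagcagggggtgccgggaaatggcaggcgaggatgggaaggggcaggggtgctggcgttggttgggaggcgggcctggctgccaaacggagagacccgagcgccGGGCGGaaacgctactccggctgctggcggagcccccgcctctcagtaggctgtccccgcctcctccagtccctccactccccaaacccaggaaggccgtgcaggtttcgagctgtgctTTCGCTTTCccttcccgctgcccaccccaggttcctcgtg
Psme2 (chr14:55591052-55591351, - strand): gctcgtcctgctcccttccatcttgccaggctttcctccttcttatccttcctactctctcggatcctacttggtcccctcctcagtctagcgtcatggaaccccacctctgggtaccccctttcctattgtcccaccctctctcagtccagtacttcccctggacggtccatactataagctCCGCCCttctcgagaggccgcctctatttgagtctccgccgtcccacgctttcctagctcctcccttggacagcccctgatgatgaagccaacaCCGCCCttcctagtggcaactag

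The motifs were searched on both strands in the 42 member promoters that the RefSeq table holds, and a gene with several entries was counted by its first. The ETS site CCGGAAG lay in 33.3% of member promoters, 9.12% of all 27025 promoters and 20.7% of the promoters of genes with an Rpb2 promoter peak. The GC box GGGCGG lay in 54.8%, 35.9% and 67.9%, and the CCAAT box in 35.7%, 37.9% and 39.2%. The site of nuclear respiratory factor 1 (NRF1), GCGCANGCG, lay in 16.7%, 6.47% and 15.7%. Against bound promoters, members exceeded by the widest margins for the ETS site and for the interferon motif below, and no test of these shares was made. TGACNNNGC is the core of the antioxidant response element, through which NFE2L1 and NRF2 act on proteasome genes. It lay in *Psmb5* and *Psmb6* among those shown and in 14.3% of members, 12.5% of all and 15.6% of bound promoters. The YY1 site AAGATGGCG was found in *Psmb6* and *Psmc5* (4.76% of members, 1.49% of all and 3.66% of bound promoters).

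The interferon-stimulated response element core GAAANNGAA lay in 14.3% of member promoters, 8.57% of all and 7.05% of bound ones. It was found in *Psme1*, where it starts 11 bases into the transcript, and in *Psmb3*, *Psmb4*, *Psmd4*, *Psmd9* and *Psmg4*, but in none of the immunoproteasome windows. The gamma-activated site core TTCNNNGAA lay in *Psmb8*, 97 bases before the start, and in 7.14% of members, 8.47% of all and 6.69% of bound promoters. TATAAA was found in 9.52% of members, 14.2% of all and 6.23% of bound promoters. The main Rpb2 peaks of *Psmb8* and *Psmb10* are centred 206 and 333 bp after these starts, and *Psmb8* has a further peak centred at −391 bp, upstream of its window. *Psmb9* shares its promoter with *Tap1*, the peptide transporter subunit: their starts lie 223 bp apart on opposite strands, and the longest GENCODE transcript of *Psmb9* begins 211 bp inside *Tap1*, so reads there cannot be assigned to 1 of the genes.

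A promoter peak of Rpb2 was defined as the peak with most reads within 1000 bp of the transcription start site (TSS), by the distance in the deposited table. It was found for 40 member genes, with 41 peaks in all because *Psmb8* had a pair of them. *Psmc1* and *Psmc2* had Rpb2 peaks at −2085 and 1486 bp from the TSS the authors used and were not counted. No Rpb2 peak carried the names of *Psma5*, *Psma8*, *Psmd5*, *Psmd10*, *Psmd13* or *Psmd14*; the TSS of *Psmd13* lies under a peak named for its neighbour *Sirt3*. A promoter peak of H3K27ac, whose span widened by 1000 bp had to hold the TSS, was found for 41 genes. It was missing for *Psma4*, *Psmb1*, *Psmb3*, *Psmc5* and *Psmg2*, whose TSSs lie under peaks named for *AY074887*, *Tbp*, *Pcgf2*, *Ftsj3* and *Cep76*, and for the testis gene *Psma8*. It was also missing for *Psmc1* by the TSS of the deposited table, although the GENCODE start of *Psmc1* lies within its own peaks of both marks. Such neighbours are common here: 8 of the 50 genes (16%) have the start of another protein-coding gene on the opposite strand within 1000 bp upstream of their own, against 6.78% of all 21924 protein-coding genes and 9.32% of those with an Rpb2 promoter peak. They are *Psma2*, *Psma7*, *Psmb1*, *Psmc2*, *Psmc5*, *Psmd10*, *Psme2* and *Psmg2*. *Psmb9* is not among them, because its GENCODE start lies inside *Tap1*.

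Proteasome promoters held about as much Rpb2 as other bound promoters. Levels are given as CPM per kb, the reads of a peak scaled to counts per 1e6 (CPM) over the peaks of the fit, after TMM scaling, and per kilobase of peak, so that genes can be compared. In WT, the median of the 40 member promoters was 321 CPM per kb, and that of the promoter peaks of all 8350 genes was 307. The 27 constitutive subunit genes had a median of 336, and 16 of them lay above the median of all genes. Their levels ran from 72.8 to 681. The constitutive genes thus spanned a 9.35-fold range of promoter levels.

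Among 20S α genes, *Psma6* was highest with 446 and 517 CPM per kb in the WT pools (female, then male here and below) and 322 and 410 in KO. *Psma1* was lowest with 58.7 and 305 in WT and 130 and 263 in KO. The WT pools of *Psma1* differed more from each other than its genotypes did. Among 20S β genes, *Psmb6*, the constitutive counterpart of *Psmb9*, was highest with 925 and 437 in WT and 512 and 737 in KO. *Psmb7*, the constitutive counterpart of *Psmb10*, was lowest with 13.2 and 132 in WT and 145 and 162 in KO, where the lowest value rests on 2 reads in the library labelled WT female.

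Within the 19S cap, the ATPase genes had WT means from 229 (*Psmc4*) to 405 CPM per kb (*Psmc5*), a 1.77-fold range. *Psmc5* held 408 and 403 in WT and 566 and 496 in KO. *Psmc4* held 160 and 297 in WT and 209 and 181 in KO. The non-ATPase genes ran from *Psmd9*, an assembly chaperone of the base by function, with 116 and 32.4 in WT and 74.2 and 175 in KO, to the lid subunit *Psmd3*, with 712 and 306 in WT and 262 and 372 in KO. *Psmd9* was the lowest of its class in each WT pool, whereas *Psmd3* was highest by its mean but not in the WT male pool.

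The highest levels of all were found outside the constitutive set. *Psmb8* ranked first of 40 in both genotypes, with 927 and 970 CPM per kb in WT and 997 and 1131 in KO, above 91.8% of all promoters in WT. *Psme4*, the nuclear activator PA200, ranked second with 769 and 833 in WT and 747 and 887 in KO. The lower WT pool of *Psmb8* lay above the higher one of *Psme4*. The same held for 1 other pair of neighbours in the order, *Psmc5* above *Psmc6*, and the WT pools of all other neighbours overlapped. *Psmb9* and *Psmb10* ranked 27 and 31 in WT, with means of 267 and 227. *Psme1* was the lowest activator, with 280 and 209 in WT and 297 and 367 in KO. The assembly chaperones named *Psmg* had the lowest median of any class with at least 3 genes (201). They ran from *Psmg1*, with 601 and 315 in WT and 317 and 344 in KO, to *Psmg2*, with 29 and 55.7 in WT and 167 and 116 in KO. The inhibitor *Psmf1* held 469 and 186 in WT and 175 and 164 in KO. *Psmc3ip* held 174 and 245 in WT and 310 and 207 in KO.

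**Figure D1:**
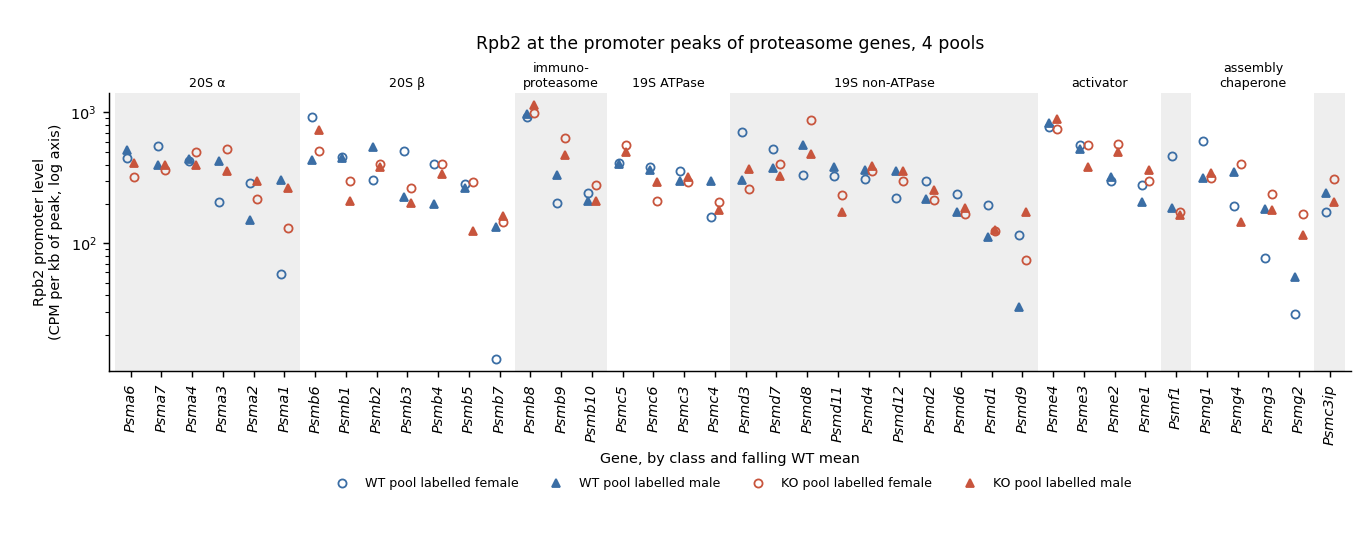
Rpb2 level at the promoter peak of 40 genes (CPM per kb of peak, log axis), with 1 symbol per pool and genes ordered by class and by falling WT mean. *Psmb8* and *Psme4* have the highest mean in both genotypes, *Psmg2*, *Psmd9* and *Psmb7* have the lowest WT means, and the pools of 1 genotype often lie as far apart as the genotypes.

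Immunoproteasome promoters were among the member promoters with most H3K27ac. The WT level was 29.2 CPM per kb at *Psmb9*, 24.2 at *Psmb10* and 20.7 at *Psmb8*, ranks 1, 2 and 5 of 41. These lay above 98.7%, 95% and 89% of the promoter peaks of all 10717 genes. The constitutive genes had a median of 12.2, against 11.4 for all genes, and 16 of 29 lay above the latter. In single pools, *Psmb9* held 27.2 and 31.1 in WT and 37.7 and 52.9 in KO, and *Psmb10* held 18.8 and 29.5 in WT and 21.6 and 28.5 in KO. *Psmb8* held 17.8 and 23.5 in WT and 23.4 and 19.6 in KO. The same genes ranked above 98%, 97.3% and 91.8% of all promoters in the WT male library alone.

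Of the genes that follow, *Psmb2* had 22.7 CPM per kb and the PA28 genes *Psme1* and *Psme2* had 21.9 and 20. At the low end were *Psma5* (5.81), *Psmd10* (6.72) and *Psmb6* (7.43). *Psmb6* had the highest mean Rpb2 level of the constitutive genes, but in the WT male libraries alone 5 constitutive genes lay above it in Rpb2, and its H3K27ac level lay above 44% of all promoters, against 25.4% by the WT mean. The levels of the marks were weakly related across the 35 genes with both promoter peaks, with Pearson's r = 0.16 and Spearman's rho = 0.12 on log2 levels (0.18 and 0.13 in the WT male pools alone). Across 7551 genes of all kinds, r was 0.50 and rho 0.51. These correlations run over genes, which share libraries, depth and base composition and are not independent replicates.

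**Figure D2:**
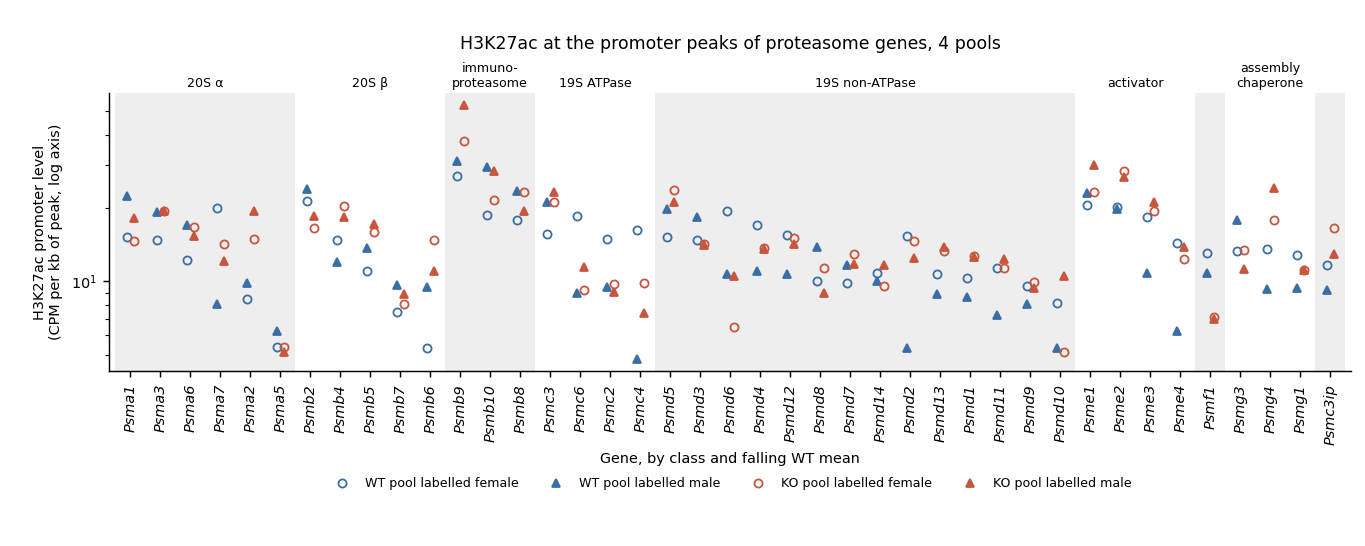
H3K27ac level at the promoter peak of 41 genes (CPM per kb of peak, log axis), drawn as for Rpb2. *Psmb9* and *Psmb10* have the highest WT means, *Psme1* and *Psme2* head the activators, and *Psma5* is lowest in the WT mean.

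**Figure D3:**
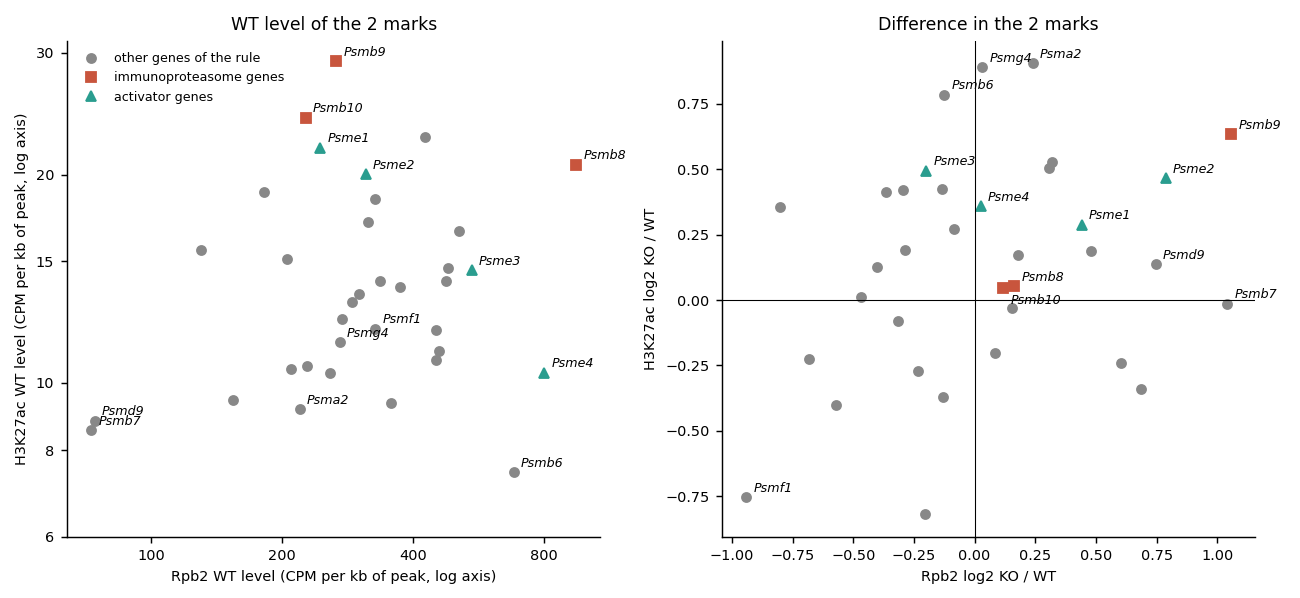
Each point is 1 of the 35 genes with a promoter peak of both marks. The left panel sets the WT levels of Rpb2 and H3K27ac against each other on log axes, where the 3 immunoproteasome genes lie at high H3K27ac and *Psmb6* at high mean Rpb2 with low mean H3K27ac. The right panel sets the log2 differences between KO and WT against each other. There, 13 genes lie above 0 for both marks, among them *Psmb9*, *Psme2* and *Psme1*, and 7 lie below 0 for both, among them *Psmf1*.

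Loss of *Cx3cr1* was then examined at each promoter, the question the design addresses. With edgeR's quasi-likelihood test over all 10125 Rpb2 peaks near a TSS, 0 of 41 member peaks passed an adjusted p of 0.05. The background was 0% of all peaks (0 of 10125). DESeq2 and edgeR's likelihood ratio test also called 0 member peaks. At an unadjusted p under 0.05, 3 member peaks were higher in KO (7.32%, against 4.42% of all peaks) and 1 was lower (2.44%, against 6.13%). Without the library labelled WT female, 1 was higher (against 6.94% of all) and 0 were lower (against 7.04%). Both KO pools lay above both WT pools at 8 member peaks (19.5%, against 21.7% of all) and below them at 6 (14.6%, against 20.4%). The split turned with the scaling: scaled over all Rpb2 peaks, pools did not overlap at 5 higher (against 15.4% of all promoter peaks) and 11 lower members (against 27.1%).

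The median log2 fold change of KO over WT (log2FC) was −0.13 over the 27 constitutive promoters, where 11 were higher and 16 lower, and 0.02 over all peaks tested. In the pools labelled female the constitutive median was −0.37, and in the male pools it was −0.00, a gap wider than the median itself. Without the library labelled WT female, the median was 0.04. By class, medians were 0.07 for 20S α (4 of 6 higher), −0.13 for 20S β (2 of 7 higher), −0.16 for the ATPases (1 of 4 higher) and −0.17 for other 19S genes (4 of 10 higher). They were 0.16 for the immunoproteasome (3 of 3 higher), 0.23 for the activators (3 of 4 higher) and 0.36 for the assembly chaperones (3 of 4 higher). Scaled over all Rpb2 peaks, these 3 medians were 0.04 (2 of 3 higher), 0.11 (2 of 4) and 0.23 (2 of 4). All promoter peaks had a median of −0.11 in that scaling. From the KO list alone came 2 of 3, 2 of 4 and 3 of 4 of these peaks. It was 4 of 6 for 20S α, 4 of 7 for 20S β, 1 of 4 for the ATPases and 1 of 10 for other 19S genes.

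The member with the lowest p was *Psmb9*, a cutting subunit of the immunoproteasome. Its Rpb2 promoter peak (chr17:34187198-34187422, mm10, 20 bp from the TSS) held 35 and 68 reads (WT) against 434 and 150 (KO). After normalization this was 203 and 330 CPM per kb in WT and 637 and 474 in KO, so both KO pools lay above both WT pools. The log2FC was 1.06 (SE 0.40), with an edgeR adjusted p of 0.342. Without the library labelled WT female it was 0.76. The difference was larger than the spread between pools but did not pass the adjustment over all peaks. This peak, and those of *Psmg2* and *Psme2* below, were in the KO list alone. Near TSSs, 2613 of all 3638 peaks of that list were higher in KO, with a median log2FC of 0.33. Of its 19 member peaks, 14 were higher, against 7 of the 21 member peaks in both lists, where 14 were lower. How far list origin shaped these differences was not tested.

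*Psmg2*, an assembly chaperone on chromosome 18, came next, with 7 and 16 reads (WT) against 159 and 51 (KO). Its log2FC was 1.73 (SE 0.68, adjusted p = 0.368), and 1.35 without the library labelled WT female. The start of *Cep76* lies 263 bp away on the opposite strand. *Psme2* (chr14:55591118-55591370) held 58 and 75 reads (WT) against 439 and 178 (KO), or 299 and 324 against 573 and 501 CPM per kb. Its log2FC was 0.79 (SE 0.35, edgeR adjusted p = 0.431), and 0.73 without the library labelled WT female. The start of *Rnf31* lies 595 bp away on the opposite strand, and the Rpb2 peak of *Rnf31* gave a log2FC of 0.51. *Psme1*, the partner of *Psme2*, gave 0.44 (SE 0.38, edgeR adjusted p = 0.737). Its KO pools lay above its WT pools in this scaling but not when scaled over all Rpb2 peaks.

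Of the lower members, *Psmb1*, a 20S β subunit (chr17:15498203-15498511), held 108 and 127 reads (WT) against 278 and 91 (KO). This was 455 and 449 CPM per kb in WT and 297 and 210 in KO, with no overlap. The log2FC was −0.83 (SE 0.36, adjusted p = 0.408). The divergent gene *Tbp*, whose start lies 137 bp away, had a log2FC of 0.58 at its own Rpb2 peak. *Psmd11*, a lid subunit (chr11:80428459-80428774), held 330 and 381 CPM per kb in WT and 232 and 173 in KO, from 80 and 110 against 222 and 77 reads. Its log2FC was −0.80 (SE 0.39, adjusted p = 0.475). *Psmc6*, *Psma6*, *Psma7* and the inhibitor *Psmf1* also lay lower in both KO pools, with log2FCs of −0.57, −0.40, −0.32 and −0.94 and edgeR adjusted p from 0.573 to 0.823. Without the library labelled WT female, *Psmf1* gave −0.13. At *Psma7*, the pools labelled male were nearly equal, with 399.9 CPM per kb in WT and 399.2 in KO. Leaving out 1 pool put *Psma6* between −0.58 and −0.22.

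For several promoters, the pools of the sexes pointed opposite ways. *Psmd8* had log2 ratios of KO to WT of 1.38 in the female pools and −0.23 in the male pools. *Psmd3* had −1.43 and 0.28, and *Psmb6* had −0.85 and 0.75. Both ratios were positive at 10 and negative at 9 of the 40 member promoters (25% and 22.5%, against 29.1% and 27.3% of all 8350 genes). Between the labels, the ratios of the members were unrelated (r = 0.03, rho = −0.02, over 40 genes within these libraries). Over the promoters of all 8350 genes, r was 0.26 and rho 0.22.

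**Figure D4:**
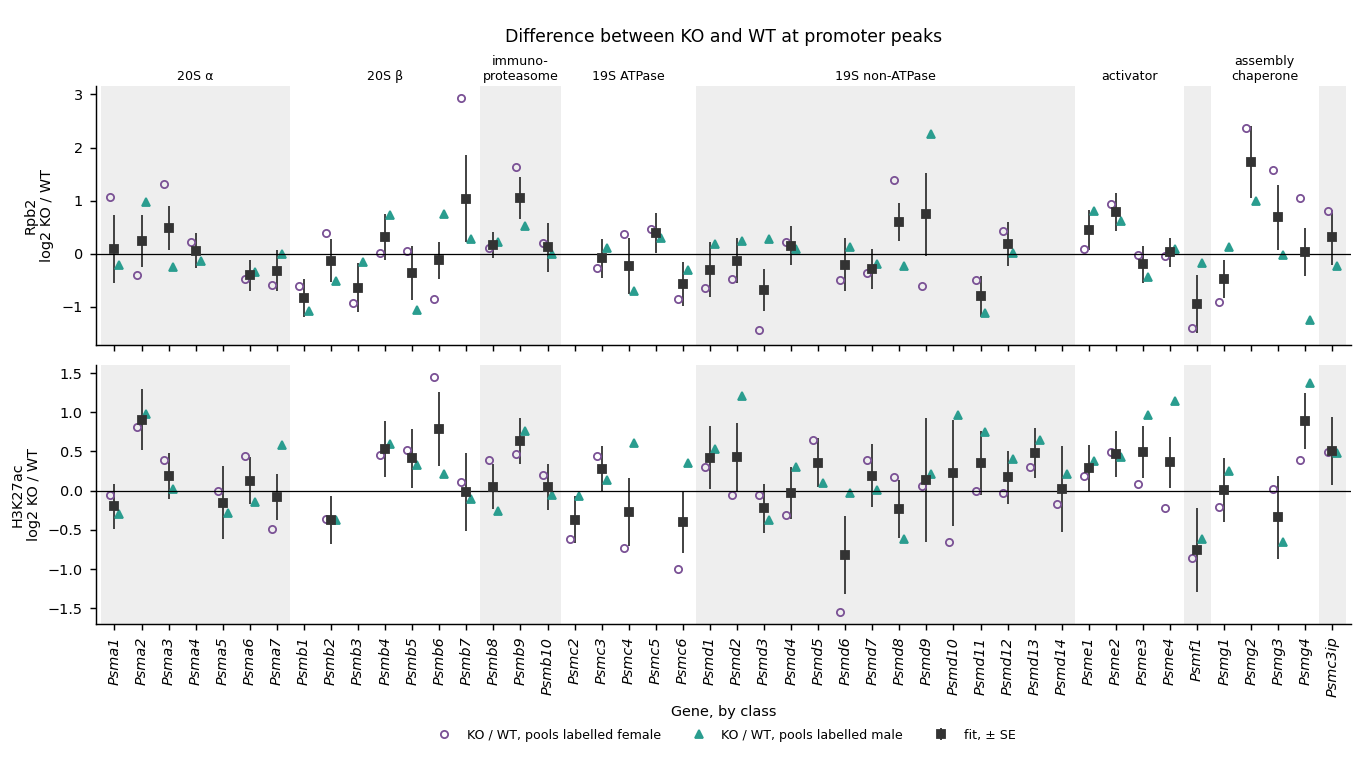
Difference between KO and WT at the promoter peaks (log2 scale), for Rpb2 above and H3K27ac below. Squares are the fitted log2FC with its SE, circles the ratio of the pools labelled female and triangles that of the pools labelled male. No member passed an adjusted p of 0.05. *Psmb4*, *Psmb9*, *Psme1* and *Psme2* have both ratios above 0 for both marks.

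The immunoproteasome genes are given apart. At *Psmb8*, a chymotrypsin-like subunit, the main Rpb2 peak (chr17:34198282-34198520) held 170 and 212 reads (WT) against 721 and 380 (KO), with a log2FC of 0.16 (SE 0.24, adjusted p = 0.862). Its upstream peak, 391 bp before the TSS and from the WT list alone, held 221 and 225 CPM per kb in WT and 295 and 236 in KO, with 0.26 (SE 0.45). At the promoter of *Psmb10* (chr8:105937933-105938185), 47 and 49 reads (WT) against 214 and 75 (KO) gave 0.12 (SE 0.46, adjusted p = 0.963). The genotypes overlapped at *Psmb10*. They did not at *Psmb8* in this scaling but did when scaled over all Rpb2 peaks, and its difference was smaller than its SE.

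Inside *Psmb10*, 1140 bp after the TSS in exon 4, a further Rpb2 peak (chr8:105937096-105937408) was tested in the fit over all 26706 peaks. It held 76 and 54 reads (WT) against 548 and 234 (KO), or 47.3 ± 16.7 CPM in WT and 95.5 ± 5.92 in KO (SD, n = 2 pools each). The log2FC was 1.02 (SE 0.34, edgeR adjusted p = 0.274), with 0.75 in the pools labelled female and 1.34 in those labelled male. In the intron of *Psme1*, a peak 1732 bp after the TSS held 0 and 4 reads (WT) against 51 and 53 (KO), a fitted log2FC of 3.38 (SE 1.20, adjusted p = 0.292) that ran from 2.45 to 8.52 with 1 pool left out and gives no reliable size. A peak inside *Psmb9*, 4209 bp after its TSS, held 0 and 15 reads (WT) against 45 and 20 (KO), and its genotypes overlapped. Each of these peaks inside genes came from the KO list alone, in which 10729 of 14148 Rpb2 peaks were higher in KO.

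For H3K27ac, *Psmb9* again lay higher in both KO pools. Its promoter peak (chr17:34186338-34188468), which also covers the start of *Tap1*, held 205 and 415 reads (WT) against 1058 and 1403 (KO). The log2FC was 0.63 (SE 0.29), with an edgeR adjusted p of 0.811, and it was 0.53 without the weakly enriched WT female library and 0.38 without the KO male library. *Psmb8* and *Psmb10* had log2FCs of 0.05 each (SE 0.29 for both), from 198 and 461 against 966 and 764 reads and from 169 and 468 against 722 and 900 reads. Without the weakly enriched library these were −0.14 and −0.24. *Psme1* gave 0.29 (SE 0.30) and *Psme2* 0.47 (SE 0.29), both with KO pools above WT pools. The peak of *Psme2* also covers the start of *Rnf31*.

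**Figure D5:**
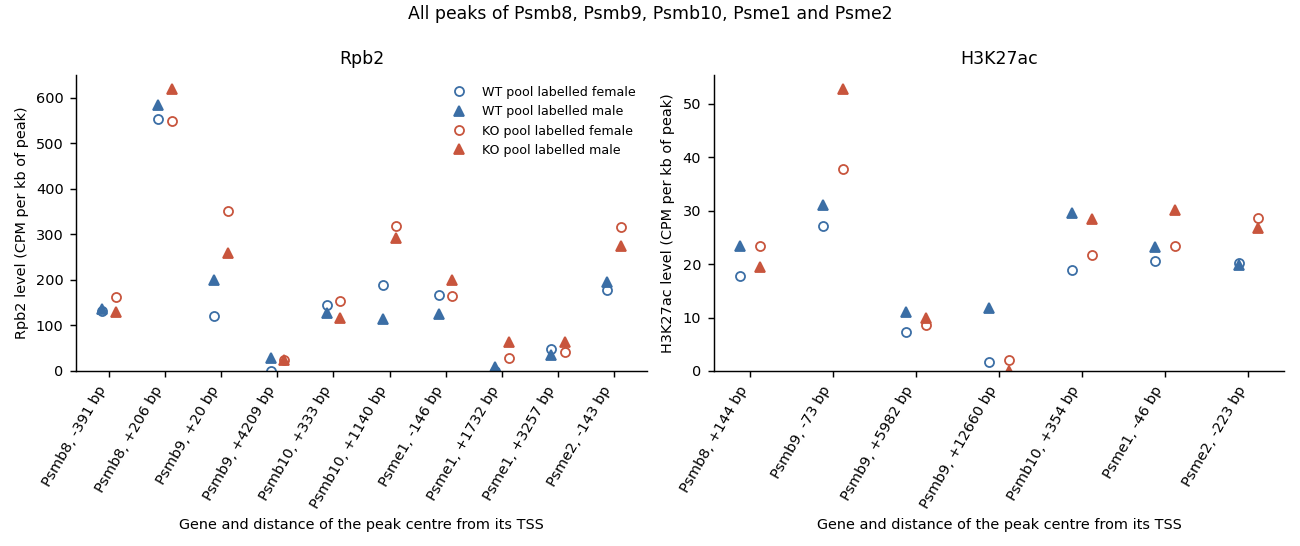
All peaks of *Psmb8*, *Psmb9*, *Psmb10*, *Psme1* and *Psme2* (CPM per kb of peak, linear axes from 0; here both marks are scaled to the reads in all peaks of the mark), with 1 symbol per pool and the distance of the peak centre from the TSS. Both KO pools lie above both WT pools at the *Psmb9* promoter for both marks, at the *Psmb10* peak 1140 bp into the gene and at the *Psme2* promoter. The Rpb2 peaks named here came from the KO list alone.

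Over all H3K27ac peaks, 0 of 101 members passed an adjusted p of 0.05 in edgeR's quasi-likelihood test, against 0.0233% of all 55798 peaks tested. DESeq2 and the likelihood ratio test called 0 as well. Unadjusted p values under 0.05 were found at 5 members that were higher in KO (4.95%, against 1.35% of all) and at 0 that were lower (against 3.6%). Without the weakly enriched library these counts were 10 higher and 4 lower of 86 members tested, against 6.99% and 6.62% of all peaks. Pools did not overlap at 25 higher members (24.8%, against 14.3%) and 13 lower ones (12.9%, against 13%). Since the median at promoters of all genes (0.07) lay above that of all peaks (−0.21), the 42 member peaks at promoters were set against promoter peaks alone. There, 3 were higher at an unadjusted p under 0.05 (7.14%, against 2.16%) and 0 lower (against 1.36%). Pools did not overlap at 15 higher promoter peaks (35.7%, against 21.3%) and 5 lower ones (11.9%, against 11.3%).

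The median log2FC of H3K27ac was 0.14 over the 29 constitutive promoters (17 higher, 12 lower). In the female pools the constitutive median was −0.00 and in the male pools 0.21. Without the weakly enriched library, it was 0.20 against 0.14 over all peaks. The activator genes had 4 of 4 promoters higher, with a median of 0.41, and the 5 constitutive 20S β promoters a median of 0.41 (3 higher). The ATPase genes had 1 of 4 higher and a median of −0.32.

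Of the H3K27ac members with the lowest p, all 5 were higher in both KO pools. *Psmg4*, an assembly chaperone of the 20S core, had a pair of them. Its promoter peak (chr13:34162253-34163785) held 74 and 89 reads (WT) against 361 and 464 (KO), a log2FC of 0.89 (SE 0.36, edgeR adjusted p = 0.811). A peak centred at −14290 bp from the TSS (chr13:34147579-34149769) held 52 and 185 reads (WT) against 478 and 523 (KO), with 0.80 (SE 0.33), but 0.40 without the weakly enriched library. The Rpb2 promoter peak of *Psmg4* gave 0.03 (SE 0.46).

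*Psma2*, a 20S α subunit (chr13:14612437-14613942), held 45 and 93 reads (WT) against 296 and 366 (KO), a log2FC of 0.91 (SE 0.39, adjusted p = 0.811), and 0.80 without the weakly enriched library. *Mrpl32* starts 75 bp away on the opposite strand. At *Psmc1*, an ATPase (chr12:100109338-100111163), 71 and 160 reads (WT) against 438 and 499 (KO) gave 0.68 (SE 0.33, adjusted p = 0.811). Its Rpb2 peak in the same stretch gave −0.03 (SE 0.47). On the lower side, *Psmd6* (−0.82, SE 0.50) and *Psmf1* (−0.75, SE 0.54) had no overlap between genotypes. For *Psmf1*, which encodes the inhibitor PI31, reads of 54 and 79 in WT and 109 and 102 in KO came to 13.1 and 10.8 CPM per kb against 7.11 and 7.03.

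Across the 35 genes with both promoter peaks, the differences of the marks had 1 sign in 20 genes, positive in 13 and negative in 7. Their correlation was r = 0.26 and rho = 0.27 (35 genes), against r = 0.01 and rho = 0.04 over 7551 genes. *Psmb9* was the only one with an unadjusted p under 0.05 in both marks.

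Away from promoters, 36 Rpb2 peaks carried member names, of which 24 came from the KO list alone and 25 (69.4%) were higher in KO. Over all 16581 Rpb2 peaks outside promoters, 59% were higher and 63.4% came from the KO list alone, whose libraries include the deepest. In the fit over all peaks, 0 of 77 members passed an adjusted p of 0.05 (0.00749% of all peaks did), DESeq2 called 2 (against 3.83% of all peaks) and the likelihood ratio test 2 (against 3.46%), so that members were not called more often than other peaks. At an unadjusted p under 0.05, 7 were higher (9.09%, against 6.12% of all) and 5 lower (6.49%, against 6.06%). Outside promoters these were 5 higher (13.9%, against 8.41%) and 3 lower (8.33%, against 4.58%).

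The member with the lowest p in this fit was a peak in intron 5 of *Psmc5* (chr11:106261695-106262078), with 0 reads in both WT libraries and 45 and 27 in KO. Against a floor of 3 reads per library, it was at least 4.34-fold higher in KO, a bound that covers counting error only (adjusted p = 0.198). A peak named for *Psmc3* at the end of another transcript (chr2:91061142-91061396) held 6 and 6 reads (WT) against 104 and 51 (KO), a log2FC of 2.16 (SE 0.78, adjusted p = 0.303). The peak at the end of *Psmc3* itself (chr2:91060269-91060479) gave 0.11 (SE 0.88), with overlapping pools. The *Psmc5* peak and the first of these were in the KO list alone, and the promoters of these genes gave 0.39 (SE 0.37) and −0.08 (SE 0.36) in the fit near TSSs.

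A peak named for *Psma3* but at −11137 bp, in exon 13 of another transcript (chr12:70963309-70963664), held 20 and 31 reads (WT) against 18 and 5 (KO). Its log2FC was −2.73 (SE 0.88, adjusted p = 0.263), and the promoter of *Psma3* gave 0.48 (SE 0.41). The *Psmb1* promoter was also among the 5 lowest p values of this fit, with −0.95 (SE 0.34). Without the library labelled WT female, 4 members were called, at *Psmc5*, *Psmb10* and *Psmd12* (higher) and *Psma3* (lower), against 8.28% of all peaks. With the WT male library left out instead, 6 were called, against 7.35% of all.

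H3K27ac upstream of *Psma1* formed the longest member peaks. A domain of 17467 bp centred at −22423 bp from the TSS held 955 and 2942 reads (WT) against 5361 and 5651 (KO), and a domain of 16038 bp centred at −40008 bp held 752 and 2482 against 4360 and 4076. Their log2FCs were 0.22 (SE 0.34) and 0.11 (SE 0.33), with overlapping pools, and the promoter gave −0.20 (SE 0.29). Of 5 further Rpb2 peaks named for *Psma1* in this stretch, none had an unadjusted p under 0.05 (log2FCs of −0.17 to 1.08).

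A group of H3K27ac members came from the WT list alone: 24 peaks, of which 18 held 0 reads in the WT male library, 15 held 0 in the KO female and 19 held 0 in the KO male. Their median was 22.5 reads in the library labelled WT female. Over all WT-only peaks of the table, the WT male library held 0 reads at 67.9% of 18524. The intronic peak of the testis subunit *Psma8* was 1 of them, with 18 and 0 reads (WT) against 0 and 9 (KO). At 18 of these 24 peaks the WT reads thus came from the library labelled WT female alone, and 0 of the 24 passed the test.

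Partners of the proteasome outside the rule were listed by role. Of 25 ubiquitin-proteasome partners, 21 had an Rpb2 promoter peak, with a median log2FC of −0.09 (8 higher, 13 lower) and 0 passing an adjusted p of 0.05. At an unadjusted p under 0.05, 2 were lower, *Ubqln1*, a shuttle for ubiquitinated proteins (−1.27, SE 0.36), and *Ngly1*, the glycanase that activates the factor *Nfe2l1* (−1.25, SE 0.41). *Nfe2l1* itself, which drives proteasome genes when proteasome activity falls, held 317 and 506 CPM per kb in WT and 200 and 308 in KO. Its log2FC was −0.71 (SE 0.37, edgeR adjusted p = 0.52). The H3K27ac promoter peak of *Nfe2l1* went the other way, with 16.9 and 20.95 CPM per kb in WT and 25.21 and 25.16 in KO (0.41, SE 0.29). For H3K27ac, 21 had a promoter peak, with a median of 0.01; *Ubqln1* was lower (−0.90, SE 0.33) and *Rps27a*, a source of ubiquitin, higher (0.99, SE 0.30) at an unadjusted p under 0.05, and 0 passed the adjustment.

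Of 8 partners in MHC class I presentation, 7 had an Rpb2 promoter peak, with a median log2FC of 0.10 (5 higher, 2 lower). *Irf1*, an interferon-responsive factor that acts on *Psmb9*, held 1201 and 1282 CPM per kb in WT and 1602 and 1513 in KO (0.33, SE 0.21). *Tap1*, across the promoter from *Psmb9*, gave 0.02 (SE 0.42) at its own Rpb2 peak. In H3K27ac, the 6 partners with a promoter peak had a median of −0.26 (1 higher, 5 lower), and *Irf1* gave −0.24 (SE 0.29).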

How the data were processed

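ChIP-seq libraries of Rpb2 and H3K27ac from microglia of WT and *Cx3cr1*-KO mice were used (4 per mark, 2 pools per genotype); the 4 input samples of the 12 were not used here. The authors aligned reads to mm10 with Bowtie 2, called peaks with HOMER, applied IDR between replicates, per their methods, and joined both genotypes' lists; many H3K27ac peaks of the WT list alone hold 0 reads in 1 WT library. They deposited raw read counts for each peak and library. The number of per-sample columns left unused was 0. A pool is 1 replicate, and p values measure the spread between these pools.

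The test was edgeR's quasi-likelihood F test (version 4.0.16, R 4.3.3; TMM factors, Benjamini-Hochberg adjustment over all peaks of a fit, genotype alone). Fits used Rpb2 peaks within 1000 bp of a TSS, all Rpb2 peaks, and all H3K27ac peaks. Peaks averaging under 4 reads in both genotypes were dropped; all members passed, and 64 H3K27ac peaks of other genes were removed. Calls needed an adjusted p of 0.05, and single-pool ratios carried a prior of 2 reads. The SE of a log2FC is its absolute value divided by the square root of the F statistic of the test. With 2 pools per genotype, p values come from models across all peaks. Depth was 10395804 to 44332626 reads per library. Steps were tested on simulated data, where H3K27ac peaks of high dispersion gave more false calls than true ones; no H3K27ac member was called.

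Every gene of the rule is accounted for. Full values are given for *Psmb8*, *Psmb9* and *Psmb10*, for the 5 members with the lowest p in each test, and for the genes with the highest and lowest WT Rpb2 level in each class; other values were chosen after they were seen. Members and lists were chosen with earlier results of these data known. Constitutive subunits were set by gene name as *Psma1* to *Psma7*, *Psmb1* to *Psmb7*, and the *Psmc* and *Psmd* genes without *Psmc3ip*. The set thus counts *Psmd* genes that are assembly chaperones by function, such as *Psmd9*. Gene positions come from GENCODE M21, and chromosome names and lengths were checked against GRCm38. Alternatives are total-read scaling, loess offsets, DESeq2 1.42.0, other filters and peak sets, the sex label as a replicate block, and each pool left out in turn. The likelihood ratio test and the fits on peaks of both lists were added after seeing the data. Python 3.11.15, pandas 2.3.3, NumPy 2.4.6 and matplotlib 3.10.9 were used.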

Additional observations from a re-analysis of the deposited data

How the results depend on the processing

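Counts of called members stayed at 0 under each alternative for Rpb2 near TSSs, with each pool left out in turn giving 0 to 0. In the fit over all Rpb2 peaks, DESeq2 called 2 (of 1022 over all peaks) and the likelihood ratio test, added after seeing the data, called 2 (of 924); leaving out 1 pool gave 0 to 6, with 4 (of 2210) without the library labelled WT female and 6 (of 1963) without the WT male. For H3K27ac, leaving out 1 pool gave 0 to 16, where 16 of 100 members (against 14.8% of all peaks) came without the WT male library, so that the weakly enriched library stood alone for WT. Scaling to total reads moved the H3K27ac median of constitutive promoters to 0.85, with the median of all peaks moving from −0.21 to 0.53, and for Rpb2 to 0.08, with that of all peaks near TSSs moving from 0.02 to 0.22. Pools left out in turn put the constitutive medians at −0.21 to 0.04 for Rpb2 and 0.02 to 0.20 for H3K27ac.

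The sign of some near-zero values was not stable. The H3K27ac value of *Psmb10* was −0.0091 with DESeq2, −0.0072 with at least 10 reads in every library, −0.079 with loess offsets and −0.025 in the fit near TSSs. That of *Psmb8* was −0.0084, −0.0052, −0.088 and −0.019. Pools left out in turn gave −0.24 to 0.41 for *Psmb10* and −0.14 to 0.27 for *Psmb8*. For Rpb2, the fit over all peaks put *Psma1* at −0.047, *Psmb10* at −0.0068 and *Psme4* at −0.10, and total-read scaling put *Psmb6* at 0.11. Ranges over pools left out ran across 0 for *Psma1* (−0.65 to 1.72), *Psmb10* (−0.091 to 0.30), *Psmb6* (−0.57 to 0.51), *Psmc3ip* (−0.0047 to 0.58), *Psmc4* (−0.60 to 0.29), *Psmd3* (−1.18 to 0.044), *Psme4* (−0.10 to 0.16) and *Psmg1* (−0.86 to 0.068). In these, the cause was not tested. Of 388 values under alternatives, 349 kept direction and side of the threshold, 27 changed sign and 12 newly passed it.

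With the sex label as a replicate block, 0 members were called in each of the 3 fits, and the constitutive medians were −0.08 for Rpb2 and 0.14 for H3K27ac. The label pairs different animals: the female minus male difference in WT and in KO correlated at −0.000468, −0.00762 and −0.000211 in the 3 fits. Low promoter counts, down to 2 reads at *Psmb7*, limit the precision for single genes.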
